A study of Mus musculus with 4 samples.

Results

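Large peritoneal type macrophages were looked for inside omental tumors of mice as cell barcodes with macrophage transcripts (Csf1r and Adgre1 together at 2 or more UMIs, unique molecular identifiers that each count 1 captured transcript) and with 5 or more UMIs over Alox15, Cd5l, Prg4 and Timd4. Barcodes with a Cd3e UMI, with more than 1 Cd79a UMI or with 3 or more UMIs of Mki67 and Top2a were left out. This rule found 189 cells (called members below) among 8332 tumor barcodes that passed the cell filter (300 or more genes and 500 or more UMIs, no more than 15% of them mitochondrial) and 11253 barcodes in the whole series. Of the 189, KPCA.A held 9, KPCA.B 94 and KPCA.C 86. The remaining 1842 tumor barcodes that met every other part of the rule (601, 383 and 858) are called the other macrophages. Members were thus chosen by the measured UMIs of these genes in the same cells. Their values, and every gene compared between members and other macrophages, are therefore descriptions with no test.

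The peritoneal cavity holds a resident macrophage of large size that expresses the transcription factor Gata6, high F4/80 (the product of Adgre1) and high CD11b (Itgam), and that is sustained by retinoic acid made by stromal cells. Smaller, monocyte-derived peritoneal macrophages carry Ccr2 and MHC class II instead. The omentum is a fatty fold of the peritoneum with immune cell clusters, where ovarian and fallopian tube cancers commonly spread, and where peritoneal macrophages can enter from the cavity.

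The tumors came from C57BL6J mice bearing the KPCA.A, KPCA.B or KPCA.C line, whose labelled cell type was fallopian tube epithelium. How the 3 lines differ is not given in the labels. Each tumor library pooled 4 omental tumors at 8 weeks that had been digested with collagenase. An ascites library at 9 weeks (the line is not named) stood beside them. There was 1 library for each of the 4 groups, so no difference between groups has a replicate check, no p-value is given, and every interval (95%) covers counting error only. Where 4 values stand together, their order is KPCA.A, KPCA.B, KPCA.C, then ascites. Total UMIs were 58591493, 40054369, 95130645 and 7420674. Of the barcodes 53.1%, 22.5%, 24.3% and 5.42% were over the mitochondrial limit, most in KPCA.A. Passing barcodes shared between libraries numbered 2 for KPCA.A and KPCA.B, 4 for KPCA.A and KPCA.C and 16 for KPCA.B and KPCA.C, and none was a member. Levels are CPM, the summed UMIs of a gene scaled to the same total in every set of cells.

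Members made up a small share of KPCA.A macrophages and a larger share in the other tumors. They were 1.48% (exact Clopper-Pearson interval 0.677 to 2.78) of the gated macrophages of KPCA.A, 19.7% (16.2 to 23.6) of those of KPCA.B and 9.11% (7.35 to 11.1) of those of KPCA.C. Of all passing barcodes they were 0.340%, 3.63% and 2.78%. The 3 intervals over gated macrophages did not overlap. Depth was lowest in KPCA.A, where the share was smallest. The median UMIs of the other macrophages were 6891, 11184 and 11522 in the 3 tumors. Between KPCA.B and KPCA.C depth did not follow the shares. The part of depth, and that of the mitochondrial share in KPCA.A, was not tested. In ascites the same rule took 661 of 870 gated macrophages, 76.0% (73.0 to 78.8), at a median of 3932 UMIs. Without Prg4 in the sum the ascites share was 43.0%, and that of KPCA.A 0.656%.

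In KPCA.B and KPCA.C most macrophages had either 0 to 2 UMIs of the summed genes or 12 and more. Of 477 gated KPCA.B cells 316 had no UMI of the 4 genes, 53 had 1 or 2, 14 had 3 or 4, 10 had 5 to 7, 9 had 8 to 11 and 75 had 12 or more. Of 944 in KPCA.C the same counts were 773, 78, 7, 9, 7 and 70. Few cells thus lay near the limit of 5 in either tumor. In KPCA.A 575 of 610 cells had none and 1 had 12 or more. Ascites cells were spread over all levels, with 61 cells at none, 81 at 1 or 2, 67 at 3 or 4, 109 at 5 to 7, 159 at 8 to 11 and 393 at 12 or more. Gated ascites cells were also shallower, with median UMIs of 3932 in members and 2287 in the others. The part of depth in this spread was not tested. The median sum of a member was 6, 35, 52 and 14 UMIs in the 4 libraries. No KPCA.A member had 3 of the 4 genes, whereas 70 of 94 in KPCA.B and 64 of 86 in KPCA.C did.

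**Figure D1:**
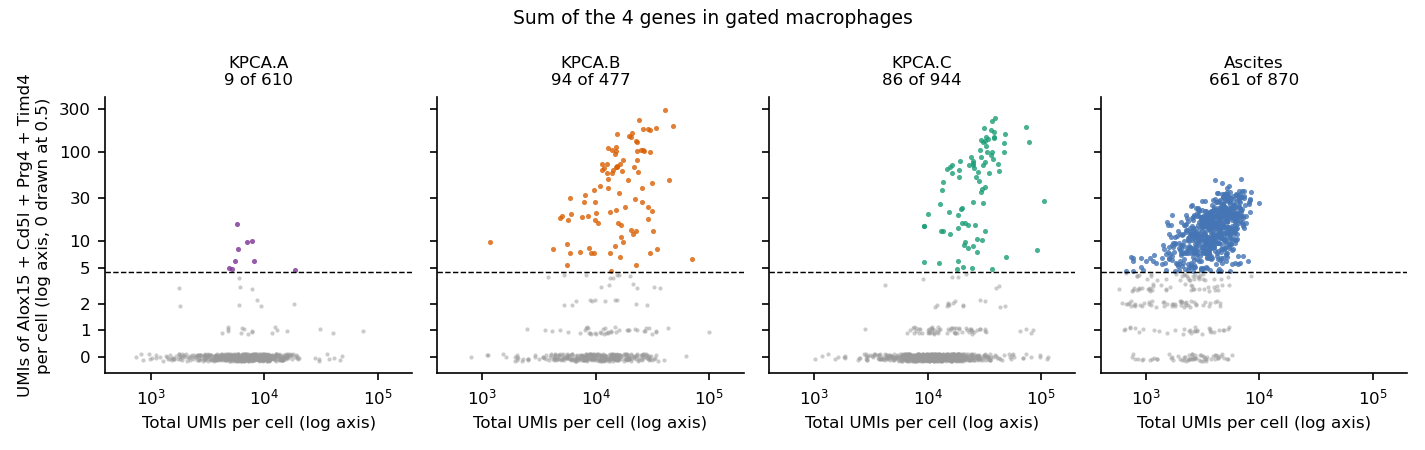
UMIs of Alox15, Cd5l, Prg4 and Timd4 together (y, log axis, slightly jittered, with 0 drawn at 0.5) against total UMIs per cell (x, log axis) for gated macrophages of each library. Colored points are members, grey points the other macrophages, and the dashed line marks the limit of 5. In KPCA.B and KPCA.C most cells lie at 0 to 2 or at 12 and more, while in ascites cells lie at every level.

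Levels in cells just outside the limit were read gene by gene. Chil3 (Ym1, a chitinase-like secreted protein, not used by the rule) stood at 9021 CPM in the KPCA.B cells with a sum of 3 or 4 and at 25321 CPM in those with 5 to 7, against 5323 CPM at a sum of 0. In KPCA.C the levels were 27440, 43342 and 2369 CPM. Ednrb, the endothelin B receptor, was 313, 159 and 70.8 CPM in the same KPCA.B bins and 85.6, 407 and 16.6 CPM in KPCA.C. Gata6 had 1 UMI in the bin of 3 or 4 in each of these tumors, too few for a direction. It was 4.29 CPM there against 12.1 CPM for 0 in KPCA.B, and 6.59 CPM against 23.4 CPM in KPCA.C. At a sum of 1 or 2 Gata6 was 9.24 CPM (8 UMIs) in KPCA.B and 51.0 CPM (79 UMIs) in KPCA.C. In KPCA.A it was 12.3 CPM at 0, 162 CPM (49 UMIs) at 1 or 2 and 184 CPM (4 UMIs) at 3 or 4. Inside the limit Gata6 was 10.3 CPM at 5 to 7 UMIs, 17.9 CPM at 8 to 11 and 132 CPM at 12 or more in KPCA.B. In KPCA.C Gata6 was 106, 33.5 and 108 CPM in these bins.

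Each summed gene was described by its own level. Alox15 (ENSMUSG00000018924, GRCm38 chr11:70344152-70352031, minus strand), the 12/15-lipoxygenase that oxidizes arachidonic and linoleic acid, stood in members at 159, 1071 (1022 to 1121), 1194 (1151 to 1237) and 872 CPM. In the other macrophages it was at 2.71, 7.04, 5.80 and 170 CPM. The rule fixes the direction of this gap, which was 5.14-fold (4.14 to 6.46) in ascites against 152-fold and 206-fold in KPCA.B and KPCA.C. The limit is in raw UMIs, so a shallower ascites cell needed a higher level to pass it. The part of depth in the narrower ascites gaps was not tested. Cd5l (ENSMUSG00000015854, chr3:87357881-87371073, plus strand), a secreted inhibitor of macrophage apoptosis, stood at 449, 1275 (1222 to 1329), 516 (489 to 545) and 638 CPM, against 3.13, 9.66, 1.85 and 126 CPM. Prg4 (ENSMUSG00000006014, chr1:150449412-150466165, minus strand), lubricin, stood at 420, 803 (761 to 847), 435 (410 to 462) and 2158 CPM, against 1.67, 3.62, 1.61 and 429 CPM. The members of KPCA.B thus had 2.47 times the Cd5l and 1.84 times the Prg4 of those of KPCA.C, at 0.897 times the Alox15.

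Timd4 (ENSMUSG00000055546, chr11:46810800-46844332, plus strand), the phosphatidylserine receptor TIM-4 that binds apoptotic cells, contributed little. It had no UMI in the 9 KPCA.A members, 61 UMIs in 25 KPCA.B members (35.8 CPM, 27.4 to 46.0), 40 UMIs in 13 KPCA.C members (15.9 CPM, 11.4 to 21.7) and 1 UMI in the 661 ascites members. No fold is given for KPCA.A, where 3 UMIs in so few cells would already be 43.5 CPM. The ascites level of 0.371 CPM was below every interval of KPCA.B and KPCA.C.

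Shares of cells with a UMI were compared after each cell was thinned to 2000 UMIs, because depth differed. Alox15 was then detected in 61.3% of KPCA.B members and 68.6% of KPCA.C members, and in 0.266% and 0.706% of the other macrophages. Unthinned, the members' shares were 84.0% and 94.2%. B cells, which should lack the gene, had it in 0.543% (KPCA.B, 800 cells, median 4934.5 UMIs before thinning) and 0% (KPCA.C, 102 cells, median 6059 UMIs; 3 cells would be 2.94%) after thinning. The members' median depths were 15588.5 and 26857.5 UMIs. The low share in the other macrophages was fixed by the rule. Outside the gate Alox15 was also present in a few KPCA.A tumor cells (229 UMIs in 815 cells with Krt8 and Krt18, 61.6% of them in 3 cells). Members thus held 3.45% of the Alox15 UMIs of passing barcodes in KPCA.A, against 48.8% in KPCA.B and 84.6% in KPCA.C.

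The label was checked with Gata6, which the rule does not use. In members it stood at 174 (12 UMIs), 110 (95.2 to 127), 101 (88.8 to 114) and 80.9 CPM, against 22.5, 11.3, 26.7 and 43.9 CPM in the other macrophages. Thinned shares were 18.3%, 17.4% and 13.1% of members in KPCA.B, KPCA.C and ascites, against 1.33%, 1.53% and 7.20% of others and 0.679% and 0% of B cells in KPCA.B and KPCA.C. Gata6 was 9.80 times (7.24 to 13.5) the level of other macrophages in KPCA.B and 3.78 times (3.20 to 4.47) in KPCA.C. Tumor cells also carried Gata6, at 88.1, 86.9 and 60.1 CPM in KPCA.A, KPCA.B and KPCA.C, so in these libraries the gene did not separate members from tumor cells. Itgam, which encodes CD11b, was at 1405 CPM in KPCA.B members and 1397 in KPCA.C members, against 381 and 574 CPM in the others. Adgre1, which the rule uses, was 933 and 938 CPM against 190 and 141 CPM. The label is kept for the members of KPCA.B and KPCA.C as sets, and the 9 of KPCA.A are too few for more than values. In the KPCA.B members with sums of 5 to 7 (10 cells) and 8 to 11 (9 cells), Gata6 was 10.3 and 17.9 CPM (2 UMIs each). That is near the 11.3 CPM of the others, so for those cells Gata6 does not bear out the label.

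Promoters were searched on both strands for the GATA factor motif AGATAA, in which the leading letter could also be T and the final letter also G, over the 250 bases before each gene's start in RefSeq's GRCm38.p6 promoter table. These are shown because Gata6 marks this macrophage. Of 32851 promoters, 26.5% held such a match. Among the summed genes only Cd5l and Timd4 matched an entry of the table, and Cd5l had matches 127 and 31 bases before its start while Timd4 had none. Of the 10 genes named below as higher in members, Vmn2r26 (14 bases before its start) and Serpinb2 (41 bases) held a match, 2 of the 9 promoters that the table lists for them (22.2%). For the 10 named as lower the count was 4 of 11 (36.4%), and for the program list used below 3 of 21 (14.3%). Serpinb2 had a second promoter (chr1:107511173-107511422) with no match, which ends just before its annotated gene start at 107511423. The Serpinb2 and Vmn2r26 promoters with a match end inside the annotated genes, so their starts differ from the annotated gene starts. Matches are capitals in the following sequences, a match on the opposite strand reading as its reverse complement.
Cd5l (chr3:87357631-87357880, plus strand): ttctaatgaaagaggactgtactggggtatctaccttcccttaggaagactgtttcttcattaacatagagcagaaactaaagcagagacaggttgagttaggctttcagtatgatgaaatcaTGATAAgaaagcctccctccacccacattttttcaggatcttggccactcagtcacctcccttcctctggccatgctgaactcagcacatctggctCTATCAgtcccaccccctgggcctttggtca
Vmn2r26 (chr6:124024508-124024757, plus strand): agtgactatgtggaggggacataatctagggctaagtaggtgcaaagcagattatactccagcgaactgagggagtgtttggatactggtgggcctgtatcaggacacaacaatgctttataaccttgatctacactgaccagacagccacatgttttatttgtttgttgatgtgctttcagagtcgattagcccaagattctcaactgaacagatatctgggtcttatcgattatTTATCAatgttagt
Serpinb2 (chr1:107511260-107511509, plus strand): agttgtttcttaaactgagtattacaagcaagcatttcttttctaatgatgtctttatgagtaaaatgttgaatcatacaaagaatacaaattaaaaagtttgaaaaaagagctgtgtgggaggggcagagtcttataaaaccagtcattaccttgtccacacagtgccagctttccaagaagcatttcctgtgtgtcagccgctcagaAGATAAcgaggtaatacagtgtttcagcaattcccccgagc

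Against the other macrophages of their own tumor, members had high levels of most genes of the large peritoneal program and low levels of most chemokines, and in KPCA.B of the MHC class II genes. In KPCA.B 288 of 8198 measured genes were more than 2-fold higher in members (3.51%) and 572 were lower (6.98%), on log2(CPM + 5). In KPCA.C 286 of 8386 were higher (3.41%) and 717 lower (8.55%). In both tumors 179 of 7781 genes were higher (2.3%) and 341 lower (4.38%). Measured genes had 50 or more UMIs in the 2 sets together and 10 CPM in either, gate genes were left out, and KPCA.A, with 9 members, entered no count. With 5 CPM added the fold of low genes is understated. Members also had a higher median mitochondrial share than the others, at 9.77% against 6.36% in KPCA.A, 5.44% against 3.87% in KPCA.B and 7.85% against 4.40% in KPCA.C, and its part in the comparison was not tested.

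Wfdc21, a small secreted protein with a whey acidic protein domain, stood at 333, 354, 312 and 7514 CPM in members, against 9.18, 7.65, 6.20 and 4378 CPM in the others. The KPCA.B ratio was 46.2 (33.3 to 66.0), and the KPCA.C ratio 50.3 (39.8 to 64.4). Ucp1, the mitochondrial uncoupling protein best known from brown fat, stood at 29.0 (2 UMIs), 174, 266 and 103 CPM, against 0, 1.41, 1.05 and 39.9 CPM. It was detected in 59.6% of KPCA.B members and 81.4% of KPCA.C members, 123-fold (59.2 to 310) and 254-fold (148 to 480) above the others. B cells had 1 Ucp1 UMI in KPCA.B and 0 in KPCA.C. The omentum is fat tissue, so adipocyte markers were read beside it. Adipoq was at 0 in members of every library and Cidec at 0 apart from 1 UMI in KPCA.C (0.398 CPM). Plin1, the lipid droplet coat protein, was 20.6 CPM in KPCA.B members and 17.5 in KPCA.C members, against 0.201 and 0.161 CPM in the others.

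Vmn2r26, a member of the vomeronasal receptor family, had few UMIs in the other macrophages of the tumors. It stood at 0, 135, 99.2 and 86.1 CPM in members, against 0.209, 0.201, 0.242 and 39.9 CPM. The others held 1 UMI in KPCA.B and 3 in KPCA.C, which gives ratios of 671 (119 to 26629) and 411 (139 to 2004). Members held 230 of the 380 Vmn2r26 UMIs of passing KPCA.B barcodes (60.5%), 249 of 275 in KPCA.C (90.5%) and none of 14 in KPCA.A, while in KPCA.B and KPCA.C they held 4.48% and 2.78% of all UMIs.

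Kcnn3, a calcium-activated potassium channel, stood at 43.5, 92.2, 96.0 and 10.4 CPM in members of the 4 libraries, against 2.09, 1.61, 0.886 and 14.0 CPM. In ascites members thus showed no excess, and the others' level there rests on few UMIs. Serpinb2, the plasminogen activator inhibitor 2, stood at 594, 593, 784 and 596 CPM, against 36.1, 4.23, 48.8 and 261 CPM. Its KPCA.B ratio was 140 (91.2 to 228), and its KPCA.C ratio 16.1 (14.7 to 17.6), where 3 cells held 83.8% of the others' UMIs. Aspa, which cleaves N-acetylaspartate, stood at 58.0, 84.6, 141 and 207 CPM, against 0.835, 1.21, 2.50 and 97.8 CPM. Mall, a membrane raft protein, stood at 58.0, 127, 76.5 and 7.79 CPM, against 0.835, 1.21, 0.967 and 3.99 CPM. Both were above the others in every library.

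Marco, a scavenger receptor for bacteria and particles, was concentrated in few cells. It stood at 174, 515, 102 and 119 CPM in members, against 6.47, 37.8, 2.98 and 118 CPM, and 3 cells held 37.0% of the members' UMIs in KPCA.B and 58.0% in KPCA.C. It was detected in 29.8% and 22.1% of members, and in 2.13% and 0% of B cells at the depths given above. Lrg1, a secreted leucine-rich glycoprotein, was widespread by contrast, in 90.4% and 91.9% of members and 2.00% and 2.94% of B cells, at 478, 646, 507 and 1358 CPM against 19.2, 54.5, 23.6 and 786 CPM. Fgfr1, a fibroblast growth factor receptor, stood at 232, 483, 452 and 613 CPM, against 16.7, 36.0, 37.4 and 323 CPM. The ratios of Fgfr1 were 13.4 (11.4 to 15.9) and 12.1 (10.9 to 13.5) in KPCA.B and KPCA.C, whose intervals overlap.

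**Figure D2:**
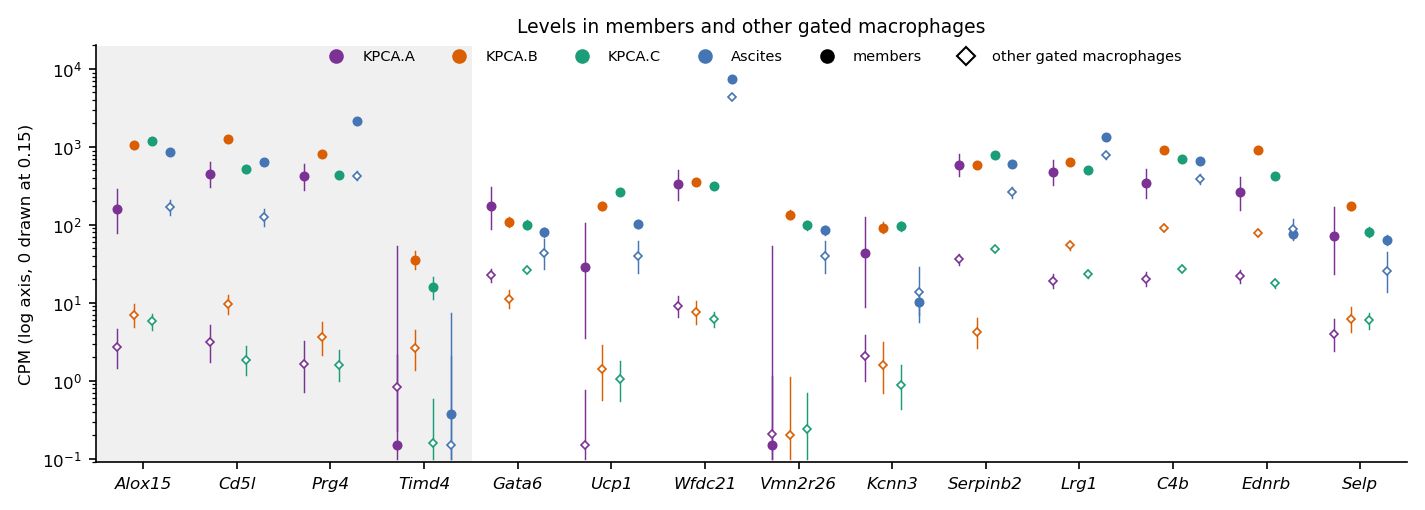
CPM (log axis, 0 drawn at 0.15) of the 4 summed genes (grey field), Gata6 and 9 other genes, in members (filled circles) and other macrophages (open diamonds) of the 4 libraries, with exact Poisson intervals as lines. The gap between the sets is wider in KPCA.B and KPCA.C than in ascites. There Alox15, Cd5l and Prg4 are about 5-fold apart, and Kcnn3 and Ednrb show no excess in members. The limit of 5 is in raw UMIs and ascites cells were shallower, and the part of depth in the narrower gap was not tested.

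The large peritoneal program was read from a list of 26 genes, of which 25 were measured in both tumors and 20 were higher in both, with 1 (Cxcl13, a B cell attracting chemokine) lower. The list's median log2 ratio was 3.20 in KPCA.B and 2.98 in KPCA.C, against −0.12 and −0.21 over all genes. Of all genes 2.3% were higher and 4.38% lower in both tumors. The list was chosen with earlier results of these data known, and it describes the members rather than supporting their name. Among adhesion genes of the list, Icam2 stood at 87.0, 170, 95.2 and 28.2 CPM in members of the 4 libraries, against 4.59, 10.5, 5.96 and 5.99 CPM. Selp, P-selectin, stood at 72.5, 173, 81.7 and 63.8 CPM, against 3.97, 6.24, 5.96 and 25.9 CPM. Both were above the others in all 4 libraries. C4b, complement component 4, stood at 348, 906, 708 and 667 CPM, against 20.2, 92.6, 27.4 and 385 CPM. Ednrb stood at 261, 904, 423 and 76.8 CPM, against 21.9, 79.5, 17.9 and 87.8 CPM, and thus showed no excess in ascites.

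The program also held clotting, acute phase and enzyme genes. F5, coagulation factor V, stood at 58.0, 230, 55.4 and 72.0 CPM, against 3.55, 14.1, 6.93 and 33.9 CPM. Padi4, which converts arginine to citrulline, stood at 217, 258, 189 and 18.5 CPM, against 5.01, 22.3, 7.97 and 14.0 CPM. Saa3, an acute phase protein, stood at 15148, 9358, 2375 and 19914 CPM, against 1093, 450.2, 274 and 18312 CPM. Saa3 was therefore high in the members of every library, and in ascites also in the others. Garnl3, a GTPase activator, had 2 UMIs in the other macrophages of KPCA.B, so its ratio of 266 is loose. It was 107 CPM in KPCA.B members and 55.8 in KPCA.C members, against 0.403 and 1.13 CPM. Tgfb2, Ltbp1 and Thbs1, which belong to transforming growth factor beta signalling, were past 2-fold in KPCA.B members and not in those of KPCA.C, at 6.93-, 22.1- and 10.8-fold against 0.853, 1.48 and 1.13. For Thbs1 the levels in members were 739 CPM in KPCA.B and 1464 in KPCA.C, and those in the others 68.2 and 1300 CPM, so the low level was in the KPCA.B others.

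Chil3 was the most abundant of the genes named here. It stood at 35558, 38845, 62135 and 25254 CPM in members, against 3092, 5492, 3180 and 16817 CPM. The ratio was 7.07 in KPCA.B and 19.5 in KPCA.C, and members held 46.3% and 66.1% of the Chil3 UMIs of passing barcodes. Of KPCA.C B cells 98.0% also had a Chil3 UMI, at 340 CPM, far below the other macrophages' 3180 CPM. Whether these UMIs came from free RNA or from doublets was not tested. Arg1, arginase, was at 8099 against 3826 CPM in KPCA.B, a ratio of 2.12 (2.07 to 2.16), and at 9202 against 6624 CPM in KPCA.C, a ratio of 1.39 (1.37 to 1.41). Spp1, osteopontin, was lower in members, at 207 against 686 CPM and 1791 against 4340 CPM.

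Among the 10 genes named as lowest in members were receptors, chemokines and actin regulators of leukocytes. Ccr2, the receptor of the chemokine Ccl2, stood at 609 (all in 2 cells), 105, 41.8 and 14.1 CPM in members, against 747, 1105, 802 and 89.8 CPM in the others. It was 10.6-fold (9.11 to 12.3) and 19.2-fold (15.8 to 23.5) lower in KPCA.B and KPCA.C members, and 3 cells held 57.3% and 82.9% of the UMIs that members had. Ly6c2, the classical monocyte marker, stood at 0, 5.29, 7.97 and 59.0 CPM, against 56.1, 146, 108 and 29.9 CPM, with ascites in the opposite order. Ms4a4c, of the MS4A membrane family, had 1 UMI in KPCA.B members and 2 in KPCA.C members, ratios of 0.00673 (0.00017 to 0.0377) and 0.00722 (0.000873 to 0.0261). Its relatives Ms4a6b and Ms4a6c stood at 6.46 and 49.3 CPM in KPCA.B members and 3.98 and 53.4 CPM in KPCA.C members, against 163 and 578 CPM and 197 and 558 CPM.

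Il1b, the inflammatory cytokine interleukin 1 beta, stood at 87.0, 4.70, 53.4 and 8.90 CPM in members of the 4 libraries, against 799, 165, 624 and 49.9 CPM. Ccl8, a monocyte-attracting chemokine, stood at 0, 75.2, 5.58 and 13.4 CPM, against 249, 964, 132 and 283 CPM. Coro1a, an actin regulator of leukocytes, stood at 232, 38.2, 14.3 and 33.0 CPM, against 422, 503, 328 and 124 CPM. All of these were lower in members in each library. Lst1 stood at 0, 19.4, 2.39 and 11.5 CPM, against 146, 271, 160 and 45.9 CPM. Emb, embigin, a partner of lactate transporters, stood at 188, 26.4, 35.9 and 28.9 CPM, against 293, 280.1, 351 and 235 CPM.

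**Figure D3:**
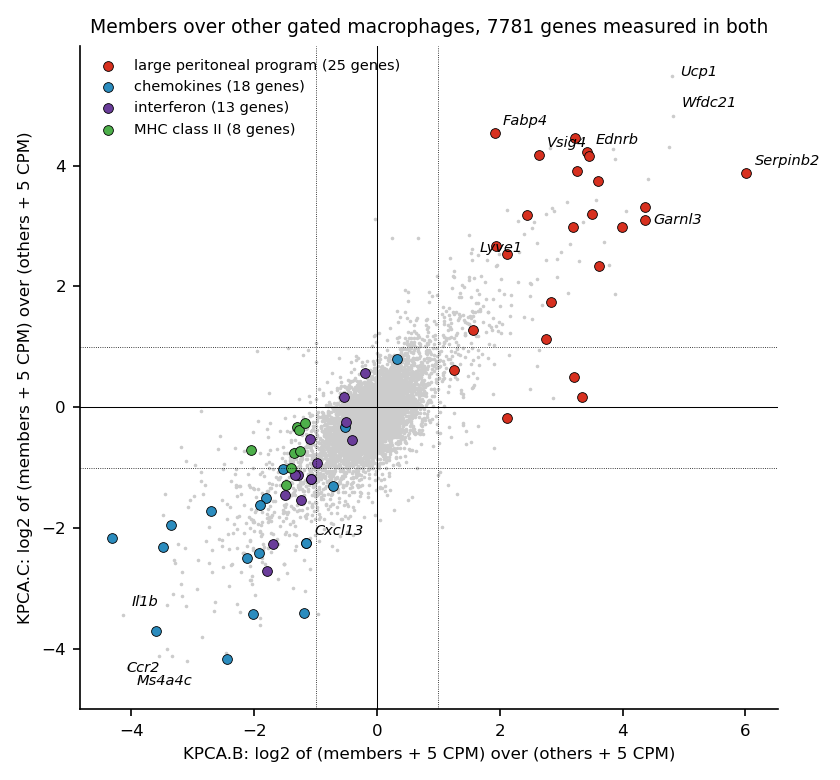
Each point is 1 of 7781 genes measured in both tumors, placed by its log2 ratio of members over other macrophages (5 CPM added) in KPCA.B (x) and KPCA.C (y); dotted lines mark 2-fold. Program genes (red) lie mostly at upper right and chemokines (blue) mostly at lower left. MHC class II genes lie below 0 in both tumors, as do most interferon genes. Cxcl13 and Cxcl10 each belong to 2 lists, and Cxcl13 is drawn blue and Cxcl10 in the interferon color.

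Gene groups were counted in the same way. Over all measured genes 2.3% were higher in both tumors and 4.38% were lower. A list with a single gene past 2-fold in a direction is given as values only. Of 18 measured chemokines 15 were lower in members of both tumors and none was higher, with medians of −1.91 in KPCA.B and −2.05 in KPCA.C. Ccl5, which attracts T cells, was 7.64 against 63.4 CPM in KPCA.B and 2.79 against 135 CPM in KPCA.C. Ccl17 was 1.76 against 129 CPM and 20.3 against 108 CPM. Ccl6 and Ccl9 were among those not lower, at 6281 against 5006 CPM and 1279 against 1828 CPM in KPCA.B, neither past 2-fold. Of 9 measured inflammatory genes 5 were lower in both tumors, with medians of −1.53 and −1.62. Interferon-stimulated genes were lower for 7 of 13, with medians of −1.09 and −1.11. Ifit2 was 0.587 CPM (1 UMI) against 14.3 CPM in KPCA.B and 1.59 against 38.2 CPM in KPCA.C.

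MHC class II genes, which present antigen to CD4+ T cells, differed between the tumors. All 8 measured were more than 2-fold lower in members in KPCA.B (median −1.32), and 2 of 8 in KPCA.C (median −0.71). Over all genes 6.98% were lower in KPCA.B and 8.55% in KPCA.C. H2-Ab1 stood at 3218, 1521, 1321 and 377 CPM in members of the 4 libraries, against 3088, 3665, 1724 and 391 CPM. Ciita, the class II transactivator, was 45.2 against 202 CPM in KPCA.B and 36.3 against 62.3 CPM in KPCA.C. The members of KPCA.B and KPCA.C stood close together, and it was the other macrophages that stood further apart.

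Lists of other macrophage kinds were mixed, beside 2.3% of all genes higher and 4.38% lower in both tumors. Of 11 genes of the small peritoneal type 5 were lower in both tumors (Mrc1, Itgax, Cx3cr1, Ccr2 and F13a1), with medians of −0.27 and −0.36. Of 12 genes of Lyve1+ perivascular macrophages 6 were lower and Lyve1, the hyaluronan receptor that names them, was higher. Apoe, which carries lipids, was 1248 against 4698 CPM in KPCA.B and 343 against 4224 CPM in KPCA.C. Of 14 genes of Arg1+ Spp1+ tumor macrophages 5 were lower (Spp1, Mmp12, Cd63, Mmp14 and Trem2). Of 12 monocyte genes Chil3 and Ifitm6 were higher and 5 were lower. Cd14 and Cd68 differed by less than 2-fold between members and others in both tumors.

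Transcription factors and lipid mediator enzymes gave a few differences, where 2.3% of all genes were higher and 4.38% lower in both tumors. Of 15 measured regulators Gata6, Klf2, Klf4 and Rarb were higher in members of both tumors and Irf8 was lower. Klf2 was 780 against 323 CPM in KPCA.B and 661 against 144 CPM in KPCA.C. Rarb, the retinoic acid receptor beta, was 28.8 against 6.04 CPM and 22.3 against 3.22 CPM, and was the only measured gene of 10 in the retinoic acid list that was higher in both. Irf8, a regulator of monocytes and dendritic cells, was 3.85-fold and 4.55-fold lower. In the eicosanoid list, which did not include the gate gene Alox15, 4 of 13 genes were higher and 1 lower. Alox5 (5-lipoxygenase) was 167 against 18.3 CPM in KPCA.B and 175 against 14.0 CPM in KPCA.C. Ltc4s (leukotriene C4 synthase) was 667 against 234 CPM and 668 against 88.4 CPM, and Ptgis (prostacyclin synthase) 183 against 36.8 CPM and 226 against 76.0 CPM.

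The next lists also stand beside 2.3% of all genes higher and 4.38% lower in both tumors. Of 14 adhesion genes Selp, Itga6, Cd9, Itgam and Icam2 were higher in both tumors and Itgal was lower. Of 10 coagulation and plasminogen genes Serpinb2, F5 and Pros1 were higher and F13a1 lower. Of 15 complement genes Itgam, C4b and Vsig4 were higher and Itgax lower, and the C1q genes C1qa, C1qb and C1qc differed by less than 2-fold. Of 17 uptake receptors Marco and Vsig4 were higher, and Fcgr1, Gas6, Stab1 and Itgb5 lower. Fcgr1, the high-affinity Fc receptor used as a general macrophage marker, was 9.99 against 132 CPM in KPCA.B and 21.1 against 194 CPM in KPCA.C. None of the measured genes of the hypoxia, iron, S phase or dissociation stress lists passed 2-fold in the same direction in both tumors. In KPCA.B alone 6 of 15 dissociation stress genes were past 2-fold lower in members and all 15 lay below 0 (median −0.90). Over all genes of that tumor 6.98% were lower, and 5116 of 8198 lay below 0. In KPCA.C 1 of 15 was lower (median −0.31), beside 8.55% of all genes. The part of dissociation stress in the lower chemokine and inflammatory genes was not tested.

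**Figure D4:**
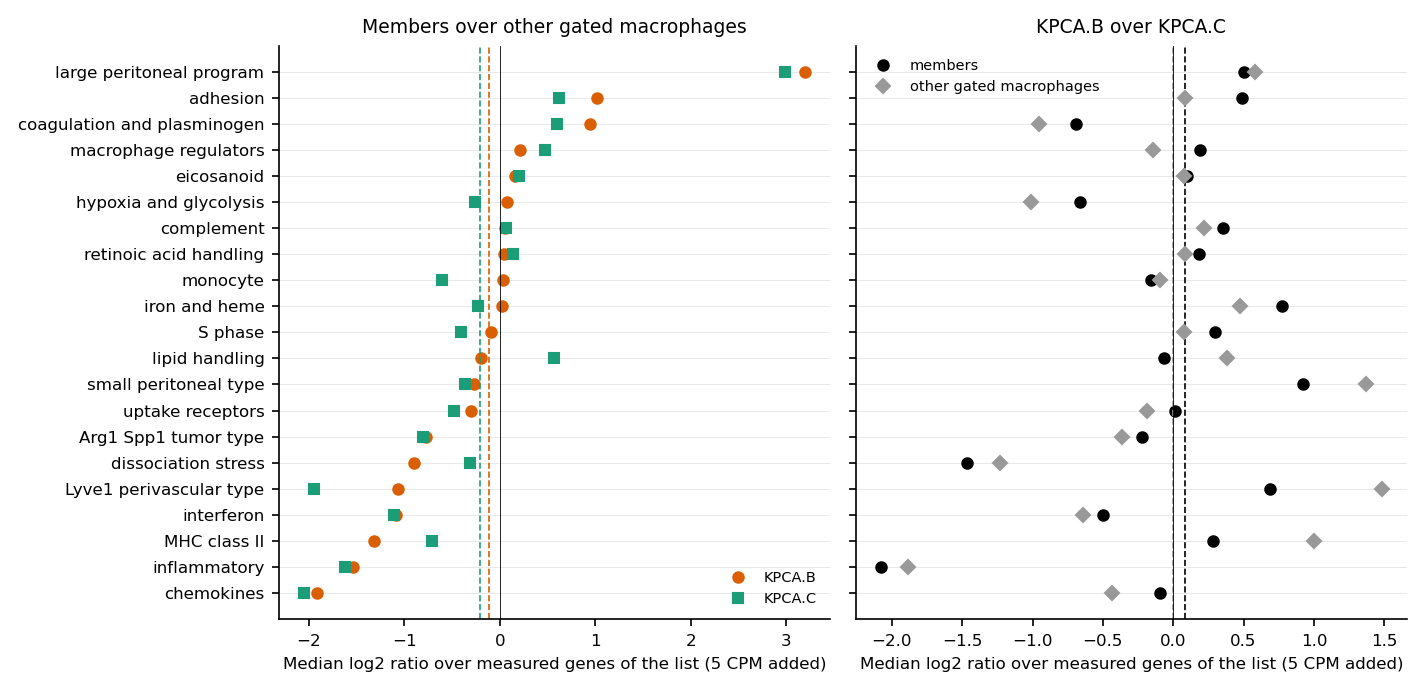
Median log2 ratio (x, 5 CPM added) over the measured genes of each list, for members over other macrophages in KPCA.B and KPCA.C (left) and for KPCA.B over KPCA.C within members and within other macrophages (right). Dashed lines are the median of all genes in the same color. The program lies near 3 at left and chemokines near −2, and at right inflammatory and dissociation stress genes lie well below 0 in both cell sets.

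Members were not uniform. Lyve1 was detected in 36 of 94 KPCA.B members (38.3%) and 18 of 86 KPCA.C members (20.9%), at 421 and 62.2 CPM, and in 2 of 661 ascites members. After thinning the shares were 30.1%, 10.5% and 0.164%, against 9.84%, 0.941% and 1.60% of the other macrophages and 1.36% of KPCA.B B cells. The 27 KPCA.B members with 3 or more Lyve1 UMIs (median 18106 UMIs) were set beside the 58 with none (median 15239 UMIs), a split chosen after the data were seen. In the Lyve1 cells Alox15 was at 332 against 1555 CPM and Prg4 at 274 against 1110 CPM, while Timd4 was at 46.7 against 27.6 CPM. Gata6 was 59.7 against 139 CPM. Folr2, a folate receptor, was at 265 against 28.5 CPM, in 23 of the 27 cells. Vsig4 was at 353 against 34.4 CPM but in 7 of the 27 cells, and Marco at 844 against 332 CPM in 11. Other receptors lay the other way, with Ccr2 at 3 UMIs in 1 cell against 144 CPM and Ednrb at 696 against 1038 CPM. In KPCA.C 7 cells had 3 or more Lyve1 UMIs and 68 none, with Alox15 at 489 against 1268 CPM and Vsig4 at 287 against 50.6 CPM, but Gata6 at 189 against 96.7 CPM and Marco at 53.9 against 73.4 CPM.

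Cells with a Timd4 UMI were also set apart, by a split on a gene of the rule that was made after the data were seen. Vsig4, a complement receptor of resident macrophages, was 366 CPM in the 25 KPCA.B members with Timd4 and 66.2 CPM in the 69 without, and 325 against 42.9 CPM in the 13 and 73 KPCA.C members. Marco was 994 against 373 CPM and 293 against 64.8 CPM. Ccr2 was 2.57 against 135 CPM in KPCA.B, and had no UMI in the 13 KPCA.C cells against 50.1 CPM in the 73. These levels rest on few cells, with Ccr2 detected in 1 of the 25, 11 of the 69 and 15 of the 73. Vsig4 was detected in 10 of the 25 and 5 of the 69 KPCA.B members. In KPCA.C it was detected in 6 of the 13 and 6 of the 73. H2-Ab1 was 780.1 against 1741 CPM in KPCA.B and 1356 against 1314 CPM in KPCA.C. Median depths were 13799 and 15895 UMIs in KPCA.B and 30888 and 25612 in KPCA.C, and the part of depth was not tested.

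Members of KPCA.B and KPCA.C were then set against each other. KPCA.B members had more Retnla, Lyve1, Marco and Hmox1, and KPCA.C members more Car4 and more genes of hypoxia, inflammation and dissociation stress. In all 215 of 7167 measured genes were more than 2-fold higher in KPCA.B (3%) and 259 lower (3.61%). The other macrophages of the same libraries had 203 of 8542 higher (2.38%) and 544 lower (6.37%), so both sets differed. Retnla, the secreted resistin-like molecule alpha, stood at 1928, 16778, 1100 and 126 CPM in members. KPCA.B was 15.3 times (14.7 to 15.9) KPCA.C. The median cell had 12376 CPM among KPCA.B members and 150.2 among those of KPCA.C, where 3 cells held 47.8% of the UMIs. In the other macrophages Retnla stood at 290.1, 8959.9, 303 and 547 CPM, so KPCA.B was high in both sets.

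Car4, a membrane carbonic anhydrase, gave the widest gap. It had no UMI in the 94 KPCA.B members (3 cells would be 3.19%), and stood at 326 CPM (304 to 349) in KPCA.C in 58 of 86 cells (67.4%), 43.5 CPM in KPCA.A (3 UMIs in 1 cell) and 1364 CPM in ascites. KPCA.B was at least 185-fold lower than KPCA.C, taking 3 UMIs over the set as the floor. In the other macrophages Car4 stood at 10.9, 6.24, 12.1 and 561 CPM. After thinning to 2000 UMIs it was in 32.6% of KPCA.C members and 83.1% of ascites members. B cells had it in 0.625% (KPCA.B) and 0.980% (KPCA.C) of cells before thinning, and 9 other macrophages of KPCA.B had the gene, so it was measurable in that library.

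Smaller gaps followed in receptors and stress genes. Lyve1 was 6.78 times (5.69 to 8.11) and Marco 5.03 times (4.37 to 5.80) as high in KPCA.B members as in KPCA.C members. Hmox1, which degrades heme, stood at 889.9 and 182 CPM. Clec4g, a C-type lectin, was 58.2 CPM in KPCA.B members and 5.18 CPM in KPCA.C members, with 0.604 and 0 CPM in the others. Pltp, which transfers phospholipids, was 214 against 27.9 CPM, and the chemokine Ccl8 75.2 against 5.58 CPM. Marco, Ccl8 and the thinned share of cells with Lyve1 were also higher in the other macrophages of KPCA.B than in those of KPCA.C. Those gaps were thus not particular to members. Gata6 (ratio 1.10, 0.902 to 1.33) showed no gap beyond its counting interval.

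Over all 7167 measured genes 259 (3.61%) were more than 2-fold lower in KPCA.B members than in KPCA.C members, and 3076 lay below 0. For the other macrophages 544 of 8542 (6.37%) were lower. Of 20 hypoxia and glycolysis genes 7 were more than 2-fold lower in KPCA.B members and 20 lay below 0 (median −0.66). In the other macrophages 11 of 20 were lower (median −1.01). Hilpda, a hypoxia-induced lipid droplet protein, was 30.0 CPM in KPCA.B members and 236 CPM in KPCA.C members. Of 9 inflammatory genes 7 were lower (median −2.08, others −1.89), with Cxcl2 at 21.7 against 256 CPM. Of 15 genes known to react to tissue dissociation 12 were lower (median −1.46, others −1.23), with Fos at 39.4 against 432 CPM. All 3 lists lay on the same side in the other macrophages of these libraries, and the 2 tumors cannot be told apart from their library preparation. Spp1 was 207 against 1791 CPM in members, and was also lower in the other macrophages of KPCA.B than in those of KPCA.C. The lipid-binding Fabp4 was 77.0 against 313 CPM in members.

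Several of the widest gaps sat in few cells or matched another cell type. Matrix genes higher in KPCA.C were Col3a1 (438 CPM, 94.4% of UMIs in 3 cells), Sparc (282, 91.8%), Timp3 (145, 96.7%), Col1a2 (120.3, also mostly in 3 cells), Bgn (115, 92.4%), Col6a1 (60.2, 81.5%) and Fbn1 (58.6, 93.2%), against 0 to 11.7 CPM in KPCA.B. The pancreatic enzyme genes Ctrb1, Cpa1 and Pnliprp1 were higher in KPCA.B members (409, 99.3 and 58.2 CPM) than in KPCA.C members (47.8, 7.97 and 4.38 CPM). They were higher still in the other macrophages of KPCA.B, at 1412, 489 and 309 CPM. Fermt1, an epithelial adhesion gene, was 63.4 CPM in KPCA.B members and 3.19 CPM in those of KPCA.C, in 1 cell of each set.

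**Figure D5:**
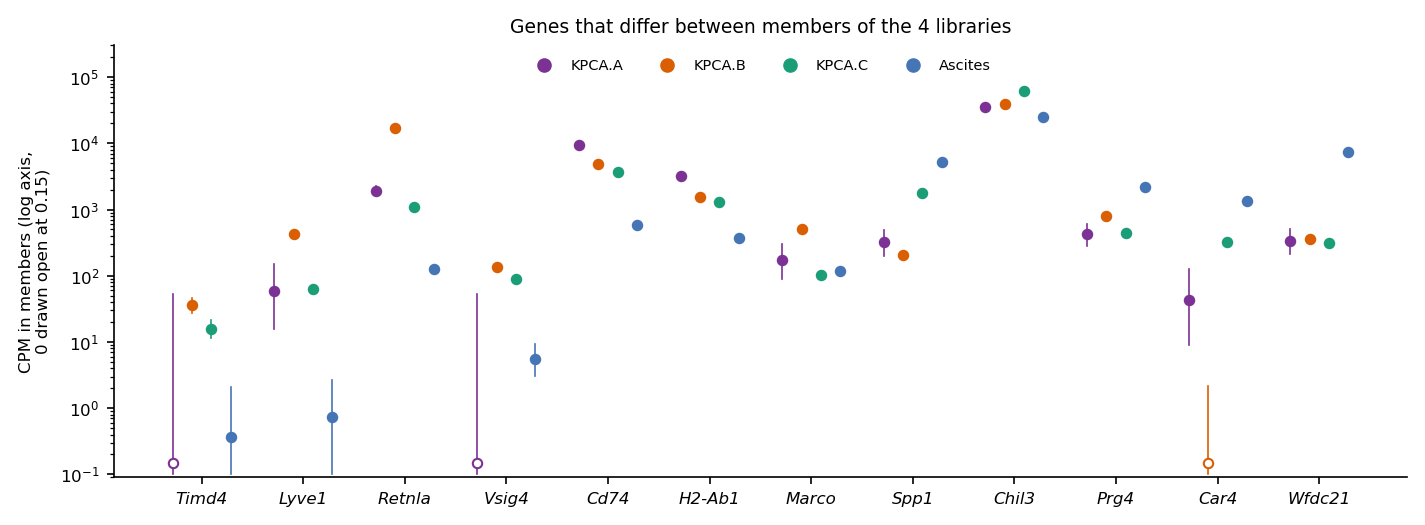
CPM in members (y, log axis, 0 drawn open at 0.15) of 12 genes in the 4 libraries, with exact Poisson intervals as lines. Timd4, Lyve1, Retnla, Vsig4 and the class II genes are higher in the tumors KPCA.B and KPCA.C than in ascites, Wfdc21 and Prg4 are higher in ascites, and Car4 has no UMI in KPCA.B.

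Members in the tumors were last set beside cells that met the same rule in ascites. In each of KPCA.B and KPCA.C 1171 of 6579 genes were more than 2-fold above ascites (17.8%) and 344 below (5.23%). The median of all genes was 0.48 and 0.41, and under median-of-ratios scaling the counts were 493 above and 774 below, so directions are read relative to it. Depth, age (8 and 9 weeks), the Cell Ranger version and the gene annotation (32285 genes in the tumors and 31053 in ascites) differed between tumors and ascites. The line of the ascites is not named, and digestion with collagenase was stated for the tumors. None of these can be told apart from the site. MHC class II genes stood above that median, at 2.68 in KPCA.B and 2.08 in KPCA.C with 7 of 7 above 2-fold. Cd74, the class II chaperone, was 4911, 3669 and 586 CPM in KPCA.B, KPCA.C and ascites. Interferon genes had medians of 1.73 and 2.24. Those of dissociation stress genes were 0.42 in KPCA.B and 1.75 in KPCA.C, and the part of digestion was not tested. The large peritoneal program had medians of 0.49 and 0.02, close to or below those of all genes.

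Of 5 neutrophil markers 3 were measured, all lower in both tumors than in ascites, beside 5.23% of all genes. In ascites the list summed to 1411 CPM in members and 1517 CPM in the others. S100a8, a neutrophil calcium-binding protein, stood at 0, 19.4, 14.3 and 1276 CPM in members of the 4 libraries. In the other ascites macrophages it was at 1333 CPM, and the part of neutrophil RNA in the ascites levels was not tested. Lcn2, which binds iron carriers of bacteria, stood at 14.5, 5.29, 1.59 and 369 CPM, and Mt1, metallothionein 1, at 841, 503, 696 and 13815 CPM. Ear6, an eosinophil-type ribonuclease, had 1 UMI among tumor members and 228 CPM in ascites. Ptp4a1, a phosphatase, stood at 0, 0.587, 3.19 and 614 CPM. Higher in the tumors were Atp6v0c (797, 899.9, 902 and 2.23 CPM), a subunit of the vacuolar proton pump, Nme2 (710, 745, 929 and 16.3 CPM), Rnasek (101, 183, 216 and 1.48 CPM) and Lars2 (623, 1144, 408 and 8.90 CPM). Atp6v0c was 936, 923 and 3.99 CPM in the others of KPCA.B, KPCA.C and ascites, so this gap was not particular to members. The gene annotation and the Cell Ranger version also differed between tumors and ascites. Their part in the gaps of Atp6v0c, Nme2, Rnasek, Lars2 and Ptp4a1 was not tested. Mgl2, a lectin of recruited macrophages, stood at 1058, 661, 351 and 1.48 CPM, and Rnase2a, a ribonuclease, at 261, 762, 662 and 7.79 CPM.

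Markers of other cell types were read in the members. T cell markers summed to 0, 2.35 and 1.99 CPM in KPCA.A, KPCA.B and KPCA.C, with Cd8a and Cd4 at 0 in all 3, and the NK cell, endothelial and dendritic cell lists stayed at or below 1.17 CPM in KPCA.B and KPCA.C. Plasma cell genes summed to 1358 CPM in KPCA.B members and 1796 CPM in the others, mostly Igkc, and were in 98.9% and 95.3% of the cells at 3 or more UMIs. Fibroblast genes summed to 12.9 and 691 CPM in KPCA.B and KPCA.C members, against 246 and 1623 CPM in the others. Tumor epithelial genes summed to 351 and 402 CPM, against 137 and 366 CPM, and 3 cells held 92.1% and 81.6% of the members' UMIs. Barcodes with 3 or more UMIs of fibroblast, mesothelial or keratin genes were 0 of 9, 1 of 94 and 21 of 86 members (24.4% in KPCA.C), against 12.4% of the other KPCA.C macrophages, at median depths of 26857.5 and 11522 UMIs. The doublet caller marked 16 of 11253 barcodes (0.142%), no tumor member among them, and has not worked, so doublets remain.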

How the data were processed

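Whole cells were measured by droplet 3' single-cell RNA sequencing, and per the labels' protocols the kit was 10x version 2. The authors deposited UMI counts per gene and barcode, not normalized. Cell Ranger was 3.1.0 with mm10 per the submitters' processing notes, while per the file headers tumors were run with 4.0.0 and ascites with 3.0.2. Sums and intervals were computed with scipy 1.17.1 and pandas 2.3.3 under Python 3.11.15, and doublet scores with scanpy 1.11.5.

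Counts were summed over members and over other gated macrophages of each library, and scaled to CPM over 30406 genes shared by both annotations. Calls needed a 2-fold difference on log2(CPM + 5). With 1 library per group, no count model was fitted. Intervals were exact (95%): Clopper-Pearson for shares, Poisson for levels and conditional for ratios. The code was tested on simulated data.

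The members and lists were chosen with earlier results of these data known. Genes named by rule were the 10 most different in each direction against other macrophages (ranked by the smaller log2 ratio of KPCA.B and KPCA.C, at 50 CPM or more), 8 between KPCA.B and KPCA.C, 6 against ascites, the summed genes and Gata6. Genes named beyond that rule and the top of each list were chosen after their values were seen. Alternatives changed the sum, filter, scaling, added CPM and thinning.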

Additional observations from a re-analysis of the deposited data

Results flagged for a closer look

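Cells kept out of the members for cycling carried the same summed genes. In KPCA.B 37 barcodes met every other part of the rule but had 3 or more UMIs of Mki67 and Top2a, and in KPCA.C 8 did. They were 28.2% (20.7 to 36.8) and 8.51% (3.75 to 16.1) of the members and these barcodes together. Among the other macrophages the same shares were 14.7% (11.6 to 18.3) and 7.24% (5.66 to 9.11), and in ascites no such barcode was found. The members' comparisons do not use these cells.

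Car4 lay on opposite sides in the tumors. Members over other macrophages were at −1.17 on the log2 scale in KPCA.B and at 4.28 in KPCA.C, and the difference was not tested.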

How the results depend on the processing

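No paired analysis was possible because each group has 1 library. Of counts of genes past 2-fold, 155 stayed within 1.5 times the main count and 21 did not. With 20 CPM added in place of 5, KPCA.B members had 179 genes higher and 256 lower than the others, KPCA.C members 164 and 310, both tumors 113 and 151, KPCA.B over KPCA.C 92 and 129, and 500 were above ascites. With cells thinned to 2000 UMIs, 109 were higher in KPCA.B members, 71 higher and 219 lower in both tumors, 63 higher and 57 lower in KPCA.B than KPCA.C, and 292 above ascites. With the sum taken on thinned cells 1101 were lower in KPCA.C members. In that alternative the limit was lowered from 5 to 2, and cells under 2000 UMIs were left out. With no minimum, 327 and 419 differed between KPCA.B and KPCA.C. Median-of-ratios scaling gave 493 above and 774 below ascites. Keeping cycling barcodes, an alternative chosen after seeing the data, gave 325 higher in KPCA.B than KPCA.C. The cause was not tested, apart from the fewer UMIs in thinned cells.

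The ascites share of 76.0% became 68.9% without Alox15, 43.0% without Prg4, 79.8% with a stricter cell filter, 83.7% at a sum of 3 and 63.4% at 8. It was 86.4% with the sum on thinned cells, where the limit and the cells kept also changed, so depth alone is not shown. The KPCA.A share was 0.656% without Prg4 and at a sum of 8, and the KPCA.B share 15.8% with the sum on thinned cells. The other 31 shares stayed within their interval. Fermt1, in 1 member per tumor, turned its KPCA.B over KPCA.C log2 ratio to −0.82 without Alox15 and −0.76 at a sum of 8. It was 0.00 without high doublet scores, without mixed barcodes and with the sum on thinned cells. Over all alternatives, 985 values of named genes stayed within 0.25 of the main log2 ratio, 410 moved further and 5, all of Fermt1, reversed. Of list medians 988 stayed within 0.25 and 119 moved further. Depth limits KPCA.A most, where 1 UMI is 14.5 CPM.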
